A study of Drosophila melanogaster with 3 samples.

Results

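Vacuolar ATPase subunit genes were examined in ChIP-seq peak lists of the zinc finger protein pad. The members were all protein-coding genes of the Ensembl release 115 annotation on the BDGP6 assembly whose symbol begins with Vha, which gave 33 of 13945 coding genes on the 6 chromosome arms with peaks. The 1 group of samples was whole adult females, of unknown age, of a transgenic line that carries pad with GFP joined to its C terminus, in 3 biological replicates, and chromatin was recovered with an antibody against GFP. Whole flies mix all tissues, so a summit cannot be placed in any one of them, and an untagged group was not analysed here. Labels call the replicates biological and say no more of their origin, so that spreads between them may be partly technical.

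The vacuolar ATPase is a proton pump that acidifies lysosomes, endosomes and synaptic vesicles, and in flies it also energises transport across the apical membrane of the renal tubules and midgut. Its V1 sector, in the cytoplasm, hydrolyses ATP with subunits A to H, and its V0 sector, in the membrane, carries protons through a rotor of c subunits beside subunit a. In Drosophila most subunits have 1 copy that is broadly expressed, and several have further copies that are mostly known from few tissues, among them the testis, which females lack. By that background knowledge 16 members were classed as broadly expressed and 17 as tissue-restricted. The classes were set with earlier results of these data known. No file analysed here measures expression, so the classes were not checked against these flies, and 6 assignments (Vha68-1, Vha100-1, Vha100-5, VhaM9.7-a, VhaM9.7-c and VhaM9.7-d) are less certain than the rest.

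The IDR list holds the 6659 peaks that passed a threshold on the reproducibility of the ranking (IDR stands for irreproducible discovery rate). They are the first 6659 by signal of the list made from the pooled replicates, so that passing follows the pooled rank. Genes are called bound where the IDR list has a summit, the highest point of a peak, no more than 250 bp from an annotated start site. Ranks give the place of a peak by the authors' signal, with 1 as the strongest. Sequences upstream of 7 members with a summit in the IDR list are given to show where the summit lay, together with those of 2 unbound copies that sit beside a bound one. Each line holds the 150 bases that end at the base before the start site, on the strand of the gene, and was read from the RefSeq Release 6 assembly, which is dm6. Capitals mark 11 bases centred on the strongest IDR summit. The windows on the plus strand are those of Vha68-2 (chr2L:12974172-12974321), VhaM9.7-b (chr3L:21539712-21539861) and Vha68-3 (chr2L:12978636-12978785). On the minus strand lie those of Vha55 (chr3R:12627830-12627979), Vha68-1 (chr2L:13004108-13004257), VhaSFD (chr2L:16727827-16727976), VhaPPA1-1 (chr3R:14904062-14904211), VhaM9.7-c (chr3L:4186866-4187015) and VhaPPA1-2 (chr3R:14900278-14900427).
Vha55: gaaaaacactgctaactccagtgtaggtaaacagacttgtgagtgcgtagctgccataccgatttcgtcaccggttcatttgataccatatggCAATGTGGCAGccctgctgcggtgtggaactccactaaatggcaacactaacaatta
Vha68-1: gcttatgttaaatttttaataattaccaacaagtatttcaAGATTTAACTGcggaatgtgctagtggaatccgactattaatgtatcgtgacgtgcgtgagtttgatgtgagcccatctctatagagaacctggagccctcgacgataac
Vha68-2: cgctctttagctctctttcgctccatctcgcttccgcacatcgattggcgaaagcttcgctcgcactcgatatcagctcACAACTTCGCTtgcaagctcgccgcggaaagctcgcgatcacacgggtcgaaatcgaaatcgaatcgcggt
VhaSFD: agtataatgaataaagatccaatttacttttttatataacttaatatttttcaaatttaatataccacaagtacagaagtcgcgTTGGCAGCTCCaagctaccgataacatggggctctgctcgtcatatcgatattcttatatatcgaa
VhaPPA1-1: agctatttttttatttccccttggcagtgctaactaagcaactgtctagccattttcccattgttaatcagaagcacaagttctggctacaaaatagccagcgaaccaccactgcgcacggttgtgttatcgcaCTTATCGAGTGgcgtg
VhaM9.7-b: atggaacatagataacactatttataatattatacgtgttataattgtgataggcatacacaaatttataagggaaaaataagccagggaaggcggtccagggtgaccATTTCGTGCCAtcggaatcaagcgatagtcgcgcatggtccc
VhaM9.7-c: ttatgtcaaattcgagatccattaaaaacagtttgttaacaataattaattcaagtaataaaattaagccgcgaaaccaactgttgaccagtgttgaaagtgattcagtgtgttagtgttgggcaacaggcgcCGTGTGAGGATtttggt
Vha68-3: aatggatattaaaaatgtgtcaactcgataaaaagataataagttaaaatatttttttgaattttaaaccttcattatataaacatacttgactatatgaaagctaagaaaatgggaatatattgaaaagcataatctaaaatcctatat
VhaPPA1-2: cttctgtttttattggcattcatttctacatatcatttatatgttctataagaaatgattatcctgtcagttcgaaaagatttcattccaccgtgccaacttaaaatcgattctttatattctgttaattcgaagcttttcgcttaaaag
GC made up between 32.0% (VhaSFD) and 55.3% (Vha68-2) of the 7 windows of bound genes, against 20.7% of that of Vha68-3 and 30.0% of that of VhaPPA1-2, the unbound copies. The ranges of bound and unbound members overlapped, since the window of bound Vha100-1 held 28.7% GC and that of unbound Vha100-4 52.7%.

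Broadly expressed subunit genes mostly carried a pad-GFP summit at the promoter, and tissue-restricted copies mostly did not. In the IDR list, a summit lay within 250 bp of a start site of 12 of the 16 broadly expressed genes (75.0%, exact binomial 95% interval 47.6 to 92.7%) and of 1 of the 17 tissue-restricted genes (5.88%, 0.149 to 28.7%). Over all coding genes the share was 24.4%. The 13 bound members made up 39.4% of the family, so that the share in the whole family lay between those of its classes. Copies of one subunit share descent, and genes are not replicates, so the intervals cover the counting of genes alone. With the 6 less certain genes moved to the other class, the counts were 11 of 18 broadly expressed (61.1%) and 2 of 15 tissue-restricted genes (13.3%). Without these 6 genes the counts were 10 of 14 broadly expressed and 0 of 13 tissue-restricted genes, a setting added after the values were seen.

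Every replicate showed the broadly expressed genes above the tissue-restricted ones. In the replicate lists, which hold 30000 peaks and background regions each, 87.5% ± 6.25 of broadly expressed genes had a summit within 250 bp (SD, n = 3), against 21.6% ± 3.40 of tissue-restricted genes (SD, n = 3). In the list made from the pooled replicates 15 of 16 and 4 of 17 genes had one, against 50.7% of all coding genes. Replicate 1 had a summit at 14 of 16 and 4 of 17 genes of the 2 classes, against 45.4% of all coding genes. Counts in replicate 2 were 15 of 16 and 3 of 17, against 50.5%, and in replicate 3 13 of 16 and 4 of 17, against 47.1%. The broadly expressed share was thus above the share of all coding genes in each replicate, and the tissue-restricted share below it. In at least 1 of the 5 lists 15 of 16 and 5 of 17 genes had a summit within 250 bp, against 60.0%. In all 3 replicates at once a summit was present at 12 of 16 broadly expressed and 2 of 17 tissue-restricted genes, against 35.7% of all coding genes.

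The contrast was also present within 1000 bp. In the IDR list 14 of 16 broadly expressed and 2 of 17 tissue-restricted genes had a summit this near, against 33.5% of coding genes, and in the pooled list 16 of 16 and 7 of 17, against 64.7%. Counts of tissue-restricted genes in replicates 1, 2 and 3 were 7, 8 and 9 of 17, against 62.8%, 63.0% and 63.3% of coding genes. Each of the 16 broadly expressed genes had a summit this near in every replicate list, as did 6 of the 17 tissue-restricted genes and 52.8% of coding genes. The distance from the nearest IDR summit to a start site had a median of 79.0 bp for broadly expressed genes and 5123 bp for tissue-restricted genes. Its median over all coding genes was 4332 bp. At 10000 bp the tissue-restricted share, 70.6%, was no longer below that of all coding genes, 66.9%, while that of broadly expressed genes was 87.5%. No summit of any of the 5 lists lay within 1000 bp of 6 tissue-restricted genes, Vha36-3, Vha14-2, Vha16-2, Vha16-3, VhaM9.7-d and VhaAC45RP, while 73.7% of coding genes had at least 1.

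**Figure D1:**
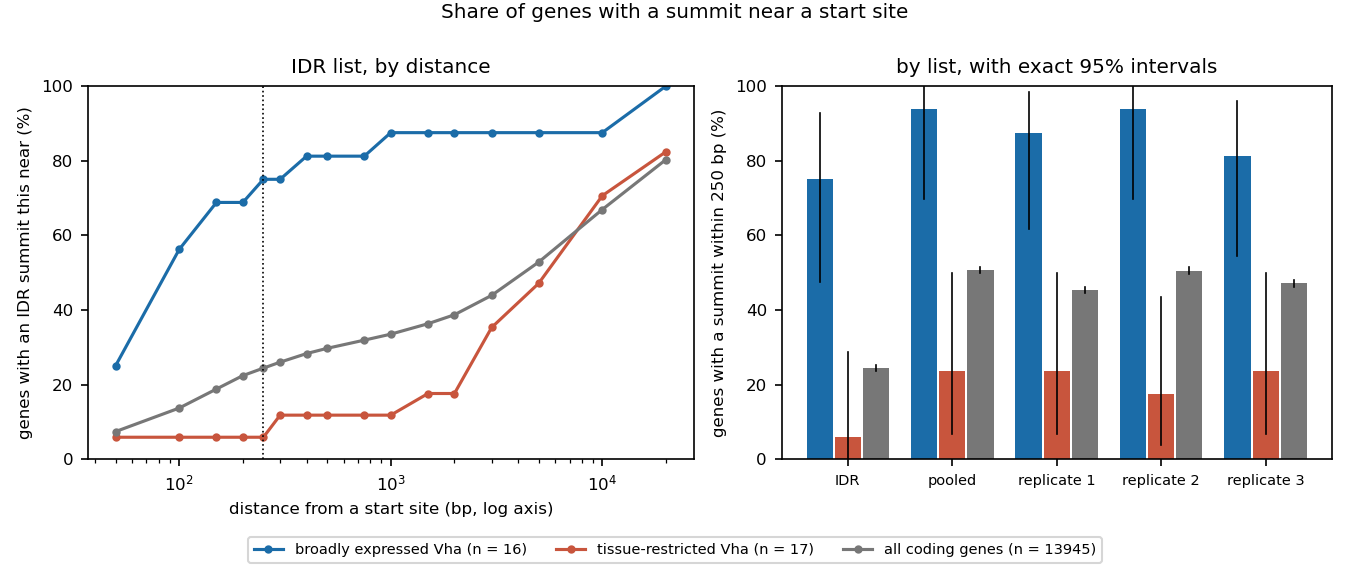
Share of genes with a summit near a start site, in percent of broadly expressed Vha genes, tissue-restricted Vha genes and all coding genes, by distance in bp (left, log axis, IDR list, dotted line at 250 bp) and by list within 250 bp (right, bars with exact binomial 95% intervals). Broadly expressed genes stand above the other groups in all 5 lists, with 75.0% against 5.88% for tissue-restricted genes and 24.4% for all coding genes in the IDR list.

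Subunits of the V1 sector, the ATP-hydrolysing part, accounted for most bound members. An IDR summit lay within 250 bp of 8 of its 9 broadly expressed genes and of 0 of its 4 tissue-restricted genes, against 24.4% of coding genes. The V0 sector has a different make-up of classes, with 4 of 6 broadly expressed and 1 of 12 tissue-restricted genes bound. Vha55, the only gene for the nucleotide-binding subunit B, had the strongest promoter summit of the family, 52 bp upstream of its start site. Its IDR rank was 984 of 6659, and its ranks were 472, 1550 and 1082 in replicates 1, 2 and 3, a mean of 1035 ± 541 (SD, n = 3). Vha36-1, for the rotor shaft subunit D, followed with a summit 45 bp upstream of the start and ranks of 612, 1758 and 969. Vha44, for the stator subunit C, had ranks of 1298, 2186 and 1420 at a summit 83 bp upstream. All 3 genes had their strongest summit in replicate 1 and their weakest in replicate 2.

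The other V1 genes ranked lower or more variably. Vha13, for the stalk subunit G, had an IDR peak of 665 bp with 1 summit in the first intron at 222 bp downstream of the start, rank 1477, and 1 in an exon at 13 bp, rank 1782. In the replicates its strongest summit near the start ranked 3549, 909 and 2539, and replicate 1 placed it 101 bp upstream where replicates 2 and 3 placed it 183 and 219 bp downstream. The position of the strongest summit at Vha13 thus differed between replicates. VhaSFD, for subunit H, which regulates the assembled pump, had ranks of 4453, 5889 and 10373 at a summit 61 bp upstream, the weakest bound promoter of the family with an IDR rank of 5754.

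Both broadly expressed genes for the catalytic subunit A were bound, and the neighbouring copy Vha68-3 was not. Vha68-1 had a summit 105 bp upstream of its start with ranks of 2043, 7089 and 4242. Vha68-2, which lies 22.2 kb away, had a summit 66 bp upstream with ranks of 3784, 6424 and 5377. Vha68-3 begins 178 bp past the end of Vha68-2, but its nearest IDR summit was 4530 bp away, and no replicate had a summit within 250 bp of its start.

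Vha26, for the stalk subunit E, had its stronger IDR summit inside the gene. The intronic summit 607 bp downstream of the start had an IDR rank of 1699 and ranks of 2985, 1612 and 1328 in replicates 1, 2 and 3. Its promoter summit, 214 bp upstream, had an IDR rank of 5158 and was present in replicates 1 and 2 at ranks of 2406 and 5696, but not in replicate 3. In replicate 1 the promoter summit was thus stronger than the intronic one. Vha14-1, for subunit F, was the 1 broadly expressed V1 gene without an IDR promoter summit. A summit at its start ranked 15257 in the pooled list, and the strong IDR summit at 872 bp, rank 1118, lay past the 3′ end of this short gene. The restricted copies Vha36-2, Vha36-3 and Vha14-2 had no summit within 250 bp in any list.

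In the V0 sector, which forms the proton channel, 4 of 6 broadly expressed genes and 1 of 12 tissue-restricted genes were bound. Vha16-1, for the rotor subunit c, had a summit 75 bp upstream of its start with ranks of 3189, 4874 and 3431, and a further IDR summit in an intron, 495 bp downstream of its inner start site. VhaM9.7-b, for the small subunit e, had a summit 37 bp upstream with ranks of 3374, 4274 and 3642, with the smallest SD of ranks in the family (3763 ± 462, SD, n = 3). VhaPPA1-1, for subunit c″, followed with ranks of 5121, 4586 and 6141 at a summit 11 bp upstream. All 3 promoters thus held a summit in each replicate. The ranks of Vha100-1, an isoform of subunit a known from neurons, were 4672, 6988 and 5687, with the IDR summit 147 bp upstream. It is counted here as broadly expressed, and its class is among the less certain.

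Copies of subunits c and c″ beside or apart from the bound genes lacked promoter summits. VhaPPA1-2 lies 2.05 kb from VhaPPA1-1 on the same strand, and no list had a summit within 250 bp of its start. Vha16-2 and Vha16-3, neighbours separated by 985 bp, were 12710 and 14282 bp from their nearest IDR summit. Vha16-4 was 23483 bp away from one. Vha16-5 had an IDR summit just beyond the limit, 285 bp upstream of its start and 17 bp upstream of that of CG12299 on the opposite strand.

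Subunit a, like c, has 5 gene copies, and its broadly expressed isoform Vha100-2 had strong IDR summits that fell outside 250 bp. This gene held 4 IDR summits within 1000 bp, the first in an intron 349 bp upstream of its inner start site, with an IDR rank of 935 and ranks of 723, 1090 and 1011 in replicates 1, 2 and 3. The first summit lay within the gene Vti1b, on the opposite strand. In replicates 1 and 2 this first summit lay 241 and 224 bp from a Vti1b start site. Another of the 4, of IDR rank 2888, lay 60 bp from a Vti1b start and 480 bp upstream of the outer start of Vha100-2. Vha100-4, which begins 517 bp past the end of Vha100-2, had its nearest IDR summit at 7472 bp, and a pooled summit 251 bp upstream with a rank of 13905. In replicate 2 a summit lay 247 bp upstream of Vha100-4, within the limit, with a rank of 11463. Vha100-3 lay 49413 bp from an IDR summit. Vha100-5 had summits within 250 bp of its start in replicates 1 and 3, at ranks of 25587 and 19838, but not in replicate 2. The pooled list had one there too, at a rank of 19166. A stronger pooled summit, of rank 12366, lay in an intron 640 bp downstream of the start of Vha100-5. The intronic summit ranked 19209, 13197 and 11497 in replicates 1, 2 and 3.

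Neither copy of subunit d and 2 of the 4 copies of subunit e were bound. VhaAC39-1, the broadly expressed d gene, had a summit at its start in every replicate, with ranks of 6381, 7758 and 8133 and a pooled rank of 7065, beyond the 6659 peaks that passed. Its tissue-restricted copy VhaAC39-2 had summits within 250 bp in replicates 1 and 3, at ranks of 7879 and 22396. VhaM9.7-c was the single bound member classed as tissue-restricted, with a summit 12 bp upstream of its start and ranks of 1879, 5141 and 2895. Its class is among the less certain, and it lies within the genes Teh2 and CG18675. VhaM9.7-a ranked 7403, 11003 and 7674 and did not pass IDR, and its pooled summit, 218 bp upstream, lay 17 bp from the start of CG11586 on the opposite strand.

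Accessory subunits had no promoter summit in the IDR list under the naming rule. VhaAC45, for the protein that guides the pump through the secretory pathway, had summits within 250 bp in replicates 2 and 3, at ranks of 13080 and 23531, and VhaAC45RP had none within 1000 bp in any list. The second accessory gene, once called VhaM8.9, carries the symbol ATP6AP2 in the annotation and is not a member by the rule. It had an IDR summit 39 bp upstream of its start with ranks of 4194, 4139 and 8670.

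**Figure D2:**
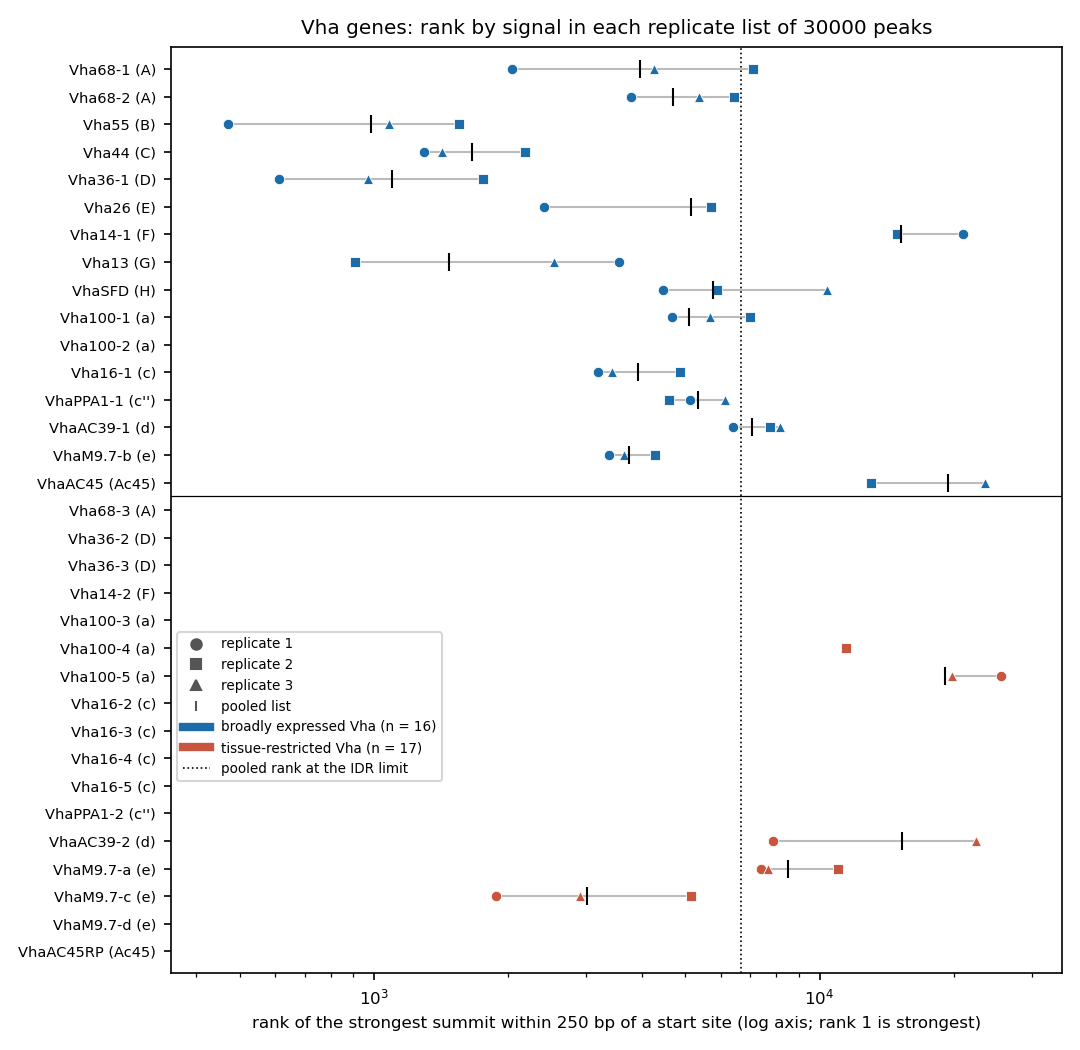
Rank by the authors' signal of the strongest summit within 250 bp of a start site (log axis, rank 1 strongest) for each Vha gene with its subunit in brackets, in the 3 replicate lists (circle, square, triangle) and the pooled list (bar), with broadly expressed genes above the line and tissue-restricted genes below it. Vha55 and Vha36-1 stand at the strong end with replicate ranks of 472 to 1758, and most tissue-restricted genes have no symbol because no summit lay this near.

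The bound members were not among the strongest promoters of the list. Their best IDR summits ranked between 984 and 5754, with a median of 3912, against a median of 3052 over the 3407 bound coding genes. Of the bound coding genes 14.4% had a summit at least as strong as that of Vha55, and 88.9% one at least as strong as that of VhaSFD. Among the 12 bound members with a summit in all 3 replicates, the rank was strongest in replicate 1 for 10 and weakest in replicate 2 for 9. The same held for 54.2% and 41.8% of the 3252 bound coding genes with such summits.

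Summits lay mostly just upstream of the gene. The strongest IDR summit near the start was upstream for 12 of 13 bound members, against 83.4% of bound coding genes, and the exception was Vha13. The median offset was -61.0 bp among the members and -83.0 bp among bound coding genes. Within 100 bp of a start site, 9 broadly expressed and 1 tissue-restricted gene still had an IDR summit, against 13.7% of coding genes.

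**Figure D3:**
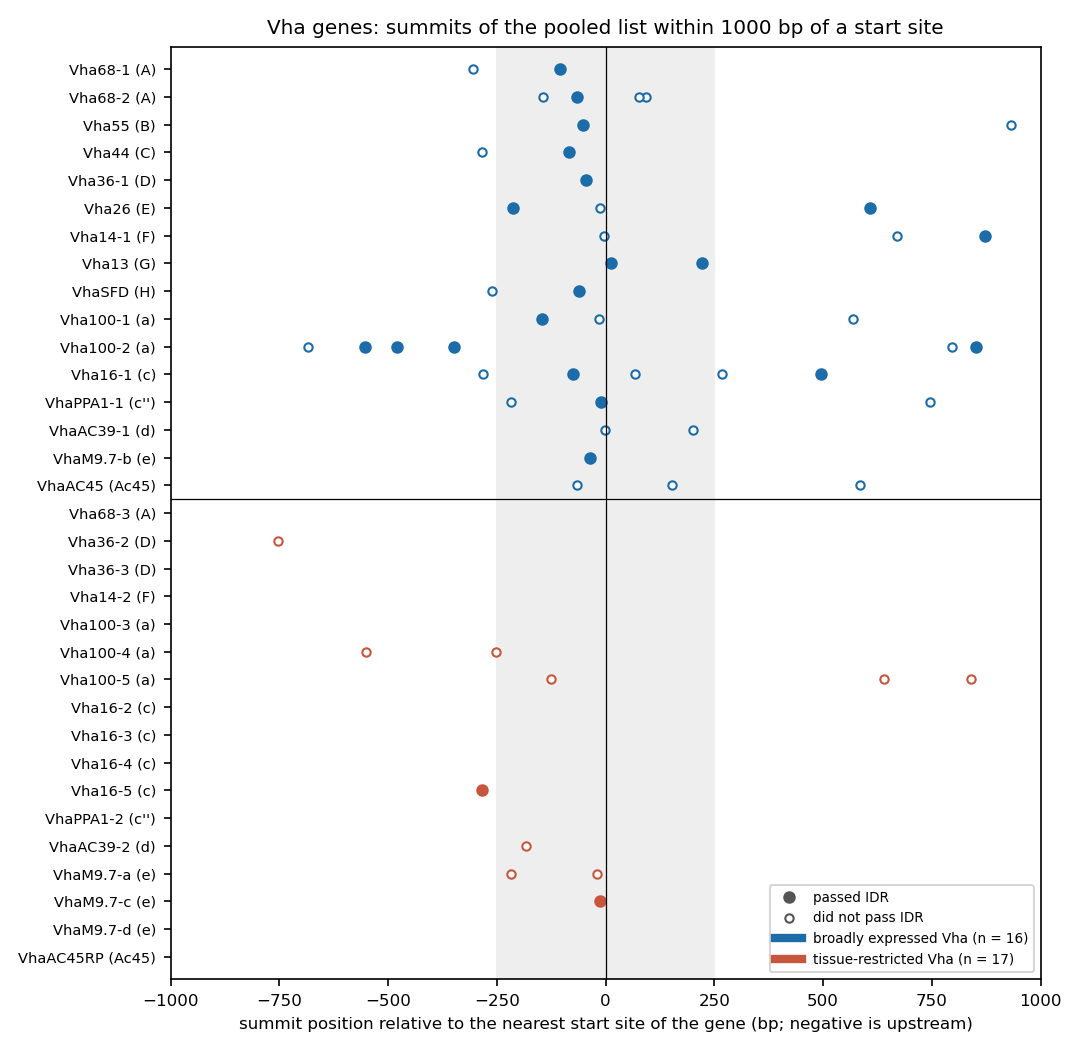
Position in bp of each pooled-list summit within 1000 bp of a start site of a Vha gene (negative is upstream, grey band is 250 bp to either side), filled where the peak passed IDR and open where it did not. Filled symbols of broadly expressed genes gather just upstream of 0, and 2 tissue-restricted genes, VhaM9.7-c and Vha16-5, have one.

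Several bound promoters were shared with a gene on the opposite strand. For 5 of the 13 bound members (38.5%) the strongest summit was also within 250 bp of the start site of another coding gene, against 42.3% of bound coding genes. Snx3, for a sorting nexin, began 150 bp from the Vha55 summit, and Hmgs, for HMG-CoA synthase, 40 bp from the Vha44 summit. The summit at Vha36-1 was 27 bp from the start of CG8187, that at Vha100-1 74 bp from dgt6, which encodes an augmin subunit, and that at Vha26 90 bp from noi, which encodes a splicing factor. In 4 of these pairs, all but Vha55 and Snx3, the neighbour's start site was the nearer one. In lists other than the IDR list, summits near Vha genes that had another coding start within 250 bp were also found with Gmppa near Vha14-1 (replicates 1 and 2), COX8 near VhaM9.7-b (replicates 1 and 3) and CG34190 near Vha16-4 (replicates 1 and 3). Such summits were found with mTor near Vha68-1 as well (pooled list and replicates 1 and 3), and with CG11586 near VhaM9.7-a (pooled list and each replicate). Gmppa and CG34190 lie on the same strand as the Vha gene, and their summits lay downstream of it. When a summit counted for the coding gene with the nearest start site only, 8 broadly expressed and 1 tissue-restricted gene stayed bound, against 20.1% of coding genes.

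**Figure D4:**
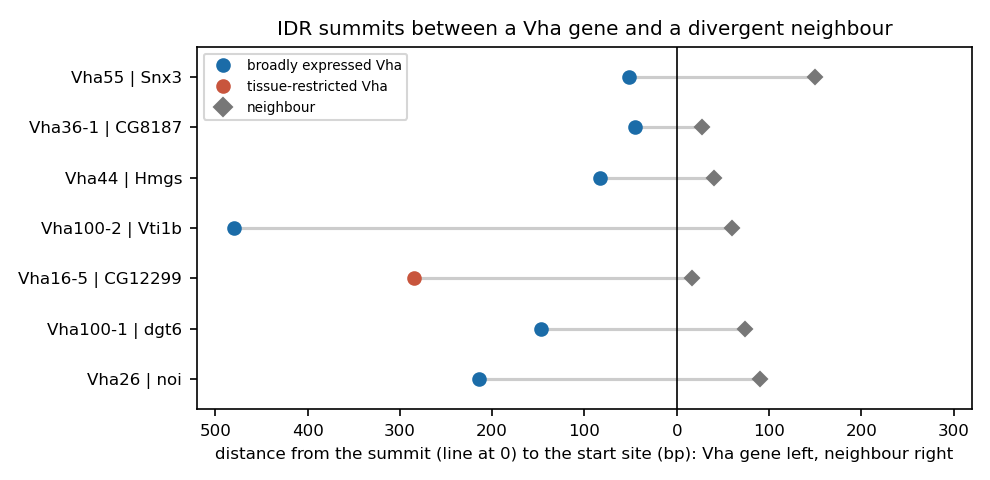
Distance in bp from an IDR summit (line at 0) to the start site of a Vha gene (circle, left) and of the divergent coding gene within 250 bp of it (diamond, right), ordered by signal from the top. At 6 of the 7 summits, all but that of Vha55 and Snx3, the neighbour begins nearer to the summit than the Vha gene.

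The classes also differed in their surroundings and in their base composition. Another coding gene had a start site within 500 bp of 10 of 16 broadly expressed and 3 of 17 tissue-restricted genes, against 30.9% of coding genes. Among coding genes with such a neighbour 44.9% were bound, and among the others 15.3%. Of the genes with such a neighbour, 7 of 10 broadly expressed and 0 of 3 tissue-restricted genes were bound. Of the 6 broadly expressed genes with no such neighbour 5 were bound, as was 1 of the 14 tissue-restricted genes. GC made up a median of 41.0% of the 150 bases upstream of the outermost start site in broadly expressed genes, 30.0% in tissue-restricted genes and 38.7% over all coding genes. A single start site was annotated for 10 of 16 and 15 of 17 genes of the 2 classes. Among genes with 1 start site, 7 of 10 broadly expressed and 1 of 15 tissue-restricted genes were bound, against 18.3% of coding genes. The parts of neighbouring start sites and of base composition in the contrast were not tested.

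Short sequence words were counted on both strands in the 300 bases from 250 before to 50 after the outermost start site and in the 101 bases around each bound gene's strongest summit. The word CAACACTG, chosen with earlier results on these peaks known, was present in the summit window of 3 of 13 bound members, Vha36-1, Vha44 and VhaM9.7-c, against 5.52% of bound coding genes. Its core AACACT, which the word contains and which was added after the sequences were seen, was present in 4 of 13, with Vha55 as the fourth, against 13.0%. In VhaM9.7-c it lay on the strand opposite to the gene at 61 and 36 bases before the start. In Vha55 it lay on the gene strand at 14 bases and, outside the summit window, at 146 bases. In the 300-base windows AACACT was present in 9 of 33 members (27.3%), against 19.1% of coding genes. Vha13, with the third rank of the family, lacked both words in its summit window. A match is a description of the letters.

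The other words were present in 0 to 17 of the 33 promoters. The DRE, TATCGATA, was present in the promoters of Vha55 and VhaSFD, 2 of 33 members against 9.36% of coding genes. Motif 1, searched as GGTCACAC, was present in 4 of 16 broadly expressed and 0 of 17 tissue-restricted genes, against 7.70% of coding genes. The 4 genes were Vha100-1, Vha14-1, Vha26 and Vha68-2. In the summit windows Motif 1 was present in 0 of 13, against 3.23% of those of bound coding genes. The E-box CACGTG, the core of the site read by the lysosomal regulator Mitf, was present in 3 of 33, Vha44, VhaAC45RP and VhaM9.7-d, against 4.20%. The GAGA site GAGAGAG was present in Vha100-2 and Vha100-5, 2 of 33 against 5.87%. AGGGGAAA was present in VhaPPA1-1 alone, against 0.803%, and GAGCGAGA in 0 of 33, against 1.81%. TATAAA was present in 8 of 16 broadly expressed and 9 of 17 tissue-restricted genes, against 45.8%.

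A list of other genes of acidification and the lysosome was also examined. Of 27 listed genes 10 had an IDR summit within 250 bp of a start site (37.0%, against 24.4% of coding genes), and 13 within 1000 bp (48.1%, against 33.5%). Rab7, which directs traffic to late endosomes and lysosomes, was the strongest with an IDR rank of 1074 and ranks of 2485, 831 and 1260 in replicates 1, 2 and 3. Rbcn-3A, which takes part in pump assembly, had a summit 106 bp upstream of its start with ranks of 4409, 5082 and 4630, and its partner Rbcn-3B had its IDR summit at 928 bp. The protease genes CtsB and CtsL1, the sterol transporter Npc1a, the lysosomal genes spin, Cln3 and Cln7, the GTPase gene Arl8 and the tethering gene car made up the rest. Mitf, the transcription factor that activates vacuolar ATPase genes, had no IDR summit within 1000 bp of a start site. The kinase gene mTor begins 373 bp from Vha68-1, and the summit between them lay 105 bp from the start of Vha68-1 and 268 bp from that of mTor.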

How the data were processed

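The dm6 peak lists of the 3 replicates, of the pooled replicates and of the peaks that passed IDR were used. Calling used a control alignment, per the text deposited with each replicate. The aligner is not given in the sources used here, nor is the peak caller. The signal of each peak was deposited by the authors with no stated scaling and served only to rank peaks within a list. The 6659 IDR peaks are the first 6659 of the pooled list by signal. Read depth is unknown, and how reads shared between gene copies were placed is not given.

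Bound genes had at least 1 transcript starting no more than 250 bp from a summit of the IDR list. Members, classes, gene lists and words were chosen with earlier results of these data known, and no test of the lists was run. All members are named, with coding genes that start within 250 bp of the same summit. Alternatives covered the list, the distance, the number of peaks, the start sites, the gene owning a summit, the classes and each replicate left out, where IDR peaks were kept if both other replicates had a peak among their strongest 10000 that overlapped by 50% of the shorter peak. The assignment found 100% of 200 planted summits among 13945 genes. Python 3.11.15, numpy 2.4.6, scipy 1.17.1 and matplotlib 3.10.9 were used.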

Additional observations from a re-analysis of the deposited data

How the results depend on the processing

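The count of bound members, 13 as reported, stayed within 1.5 times of that under 16 of 18 alternatives. In lists with more peaks the share of all coding genes rose as well. The family's share was 57.6% in the pooled list, against 50.7% of coding genes. In replicates 1, 2 and 3 it was 54.5%, 54.5% and 51.5%, against 45.4%, 50.5% and 47.1%. Within 100 bp in the IDR list it was 30.3%, against 13.7%. The count was 1 with the 1000 strongest IDR peaks (Vha55, broadly expressed, 3.03% of members, against 3.61% of coding genes). With the 3000 strongest it was 4 (all 4 broadly expressed, 12.1%, against 12.0%). The family's share was thus near that of coding genes with the 1000 and 3000 strongest peaks. These settings hold fewer peaks by construction. With each replicate left out in turn the counts were 11 to 13 members, 10 to 12 of them broadly expressed and 1 tissue-restricted. Of coding genes 22.9% to 23.2% were bound in these settings. They only took peaks away from the IDR list made with all 3 replicates, so that counts could stay or fall but not rise. The tissue-restricted count, 1 of 17 as reported, was 4, 3 and 4 in replicates 1, 2 and 3, against 45.4%, 50.5% and 47.1% of coding genes. It was 4 in the pooled list and in its strongest 20000 peaks (each 23.5%, against 50.7% and 45.6%). In the strongest 10000 it was 2 (11.8%, against 33.0%). Within 500 or 1000 bp it was 2 (11.8%, against 29.7% and 33.5%). With the 1000 or 3000 strongest IDR peaks it was 0, against 3.61% and 12.0%. With the less certain genes in the other class it was 2 of 15 (13.3%, against 24.4%), and without them 0 of 13. The cause was not tested. The acidification and lysosome list, with 10 bound genes as reported, had 21 in the pooled list (77.8%, against 50.7% of coding genes and 57.6% of Vha genes), 20 in its strongest 20000 peaks (74.1%, against 45.6%), 16, 20 and 18 in the lists of replicates 1, 2 and 3 (59.3%, 74.1% and 66.7%, against 45.4%, 50.5% and 47.1%), 6 within 100 bp (22.2%, against 13.7%), 0 with the 1000 strongest IDR peaks (against 3.61%), 2 with the 3000 strongest (7.41%, against 12.0%), and 9 to 10 with a replicate left out. Depth is unknown, so that a summit missing from a list may lie below what the replicate could show. No paired analysis was possible because there is 1 group.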
